A study of Mus musculus with 10 samples.

Results

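The 9 feedback inhibitors and targets of the ERK pathway described here were chosen by gene symbol: the Sprouty genes Spry1, Spry2 and Spry4, the Sprouty-related genes Spred1 and Spred2, the ETS transcription factor genes Etv4 and Etv5, and the phosphatase genes Dusp6 and Dusp4. All 9 were among the 54456 genes of the table, and all 9 had a mean level high enough to be tested, as did 15240 genes in all (those with a mean of at least 10 normalized counts). The study rewrote the mouse Taf1 gene to examine SVA retrotransposons of X-linked dystonia parkinsonism, and total RNA of mouse embryonic stem cells (strain C57BL/6J) was sequenced as stranded libraries. The wild type was MK6 (1 library). Of converted cells there were 2 libraries of the genotype conv-dSVA_F, 2 of conv-dSVA_D and 2 of conv-dSVA_F&D, and the names give the deleted SVA or SVAs. All 3 converted genotypes list loxP at Taf1_i24, the plasmids pSpCas9 and pSpCas9GFP, the cassette LPSwapinRed_pUC19, a mousified human TAF1 part marked as converted, and the Cre plasmid pCAGiCre. The wild type lists none of these, and no converted library that kept both SVAs was analysed here. No clone is named for any library, so genotype and clone cannot be told apart. All groups shared gelatin-coated plates and a serum and LIF medium with 3 µM CHIR99021, an inhibitor of the kinase GSK3, and 1 µM PD0325901, an inhibitor of the kinase MEK.

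ERK is the last kinase of a relay that runs from growth factor receptors through RAS, RAF and MEK. Active ERK switches on genes that in turn damp the relay: Sprouty and Spred proteins act near the receptor, RAS and RAF, and DUSP6 and DUSP4 remove phosphates from ERK itself. ETV4 and ETV5 are transcription factors whose genes are induced by the same signal, in part because ERK relieves repression by CIC. In mouse embryonic stem cells FGF4 drives this relay towards differentiation, and MEK inhibition is used to hold cells in the naive state. MEK inhibition was the same in every group and no stem cells without the inhibitor were analysed here, so the levels below are those that remained in the presence of the drug.

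Between 16588467 and 26562418 reads per library were assigned to genes. Levels are normalized counts, which are reads divided by 1 size factor per library. Taf1 measured 2898 normalized counts in the wild type, with 1116 and 1088 for conv-dSVA_F&D, 501 and 589 for conv-dSVA_F, and 362 and 418 for conv-dSVA_D. The embryonic stem cell markers fitted the label: all 8, among them Pou5f1 and Nanog, were present in all 7 libraries, and their summed level ran from 126019 to 160466. Of 8 feeder fibroblast markers Lum was at 0 in all 7 libraries. Postn was 57.85 in the wild type and 0 in every converted library, and Col1a2 was 96.05 against 0 to 8.36. Col3a1 (14.19) and Col1a1 (69.85) were also highest in the wild type. Thy1 and Pdgfrb were not, and Dcn was at 0 there. The summed level of the list was 347 in the wild type, 119 to 139 in conv-dSVA_F, 80.8 to 86.4 in conv-dSVA_D and 119 to 198 in conv-dSVA_F&D. The fibroblast sum thus moved with the comparison to the wild type, and its part in the results was not tested. Nanog fell in conv-dSVA_F&D relative to conv-dSVA_D (-0.65, adjusted p = 0.0282). The other stem cell markers did not pass there (Pou5f1 -0.08, Sox2 -0.02, Zfp42 -0.02, Esrrb -0.22, Klf4 -0.40, Tfcp2l1 -0.21, Dppa5a -0.01). Of 5 tested formative or primed epiblast markers, Lef1 rose in conv-dSVA_F&D relative to conv-dSVA_F (2.97, adjusted p = 0.0201). The others did not pass there (Otx2 1.83, Pou3f1 -0.76, Dnmt3b -0.16, Sox3 -0.08). Relative to conv-dSVA_D none of the 5 passed. Higher in conv-dSVA_F&D were Otx2 (2.36, adjusted p = 0.0514), Lef1 (1.99, adjusted p = 0.0698) and Dnmt3b (0.71, adjusted p = 0.0728). Lower were Pou3f1 (-0.76) and Sox3 (-0.51). The summed level of that list was 2708 in the wild type, 3097 to 3112 in conv-dSVA_F, 1463 to 2388 in conv-dSVA_D and 2955 to 3861 in conv-dSVA_F&D. The sum of 7 primitive endoderm markers was 117 in the wild type, 118 to 351 for conv-dSVA_F, 102 to 104 for conv-dSVA_D and 218 to 247 for conv-dSVA_F&D. The trophoblast sum was 670.2 in the wild type and 764 to 1263 over the converted libraries. The part of these lists in the results was not tested. In bulk RNA, fewer cells of a type and less RNA per cell cannot be told apart.

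Spry4 varied most of the 9 genes. It measured 49.1 normalized counts in the wild type, while conv-dSVA_F gave 1025 and 1055, conv-dSVA_D gave 1811 and 803, and conv-dSVA_F&D gave 148 and 393. The wild type was the lowest library, both conv-dSVA_F&D libraries came next, and the 4 libraries of the single-deletion genotypes were all higher, so conv-dSVA_F&D overlapped with no other group. The wild-type value rested on 45 reads (exact Poisson 95% interval 35.8 to 65.7 normalized counts, for counting error only), which lies well under the interval of the next library (126 to 173). The highest library was 36.9 times the lowest.

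Spry4 fell from 1307 ± 712 (SD, n = 2) in conv-dSVA_D to 271 ± 173 (SD, n = 2) in conv-dSVA_F&D, a log2 difference of -2.32 ± 0.44 (standard error; adjusted p = 0.0271). By name, this pair of genotypes shares the SVA_D deletion and differs in SVA_F. It was also below conv-dSVA_F, which stood at 1040.2 ± 21.1 (SD, n = 2), the log2 difference being -2.10 ± 0.44 (adjusted p = 0.0339). That pair shares the SVA_F deletion and differs in SVA_D. The mean of the converted groups was above the wild type on the log2 scale by 3.75 ± 0.48 (adjusted p = 0.0200), and 6 of 6 converted libraries were higher. Between conv-dSVA_F and conv-dSVA_D the difference was -0.21 ± 0.44 (adjusted p = 0.865), and the libraries of these groups overlapped.

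The Spry4 calls were sensitive to single libraries, while the direction was not. In the comparison with conv-dSVA_D, Spry4 no longer passed when conv-dSVA_F replicate 1 or 2 was left out (adjusted p = 0.0562 and 0.0581) or when conv-dSVA_D replicate 1 or 2 was (adjusted p = 0.214 and 0.0603). Its size went from -1.62 without conv-dSVA_F&D replicate 1 to -3.02 without conv-dSVA_F&D replicate 2, with -1.73 and -2.90 without conv-dSVA_D replicates 1 and 2. In the comparison with conv-dSVA_F it no longer passed when the library left out was conv-dSVA_F replicate 1 or 2 (adjusted p = 0.224 and 0.127), conv-dSVA_D replicate 1 or 2 (adjusted p = 0.0518 and 0.0514) or conv-dSVA_F&D replicate 1 (adjusted p = 0.0619, log2 difference -1.40), and its log2 difference was -2.80 without conv-dSVA_F&D replicate 2. Relative to the wild type it no longer passed without conv-dSVA_F replicate 2 (adjusted p = 0.0550) or conv-dSVA_D replicate 1 (adjusted p = 0.0719). All 3 Spry4 calls were also lost with no filter on low genes (adjusted p = 0.276, 0.295 and 0.106, in the order given) and with no variance trend (0.225, 0.233 and 0.267), the first with only the libraries of both sides (0.0501), and the third with the converted libraries as 1 group (0.332).

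Spry4 lies on chromosome 18 (38586247 to 38601415, minus strand, GRCm38), and genes of that chromosome stood higher as a whole in 1 library. Relative to the wild type, the median log2 level of its protein-coding genes was 0.47 in conv-dSVA_F&D replicate 2. The other 5 converted libraries ranged from -0.10 to -0.05. With the chromosome medians of all libraries set equal, the Spry4 difference was -2.61 against conv-dSVA_D (adjusted p = 0.0120) and -2.40 against conv-dSVA_F (adjusted p = 0.0198). Both differences were larger with that shift removed than with it.

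**Figure D1:**
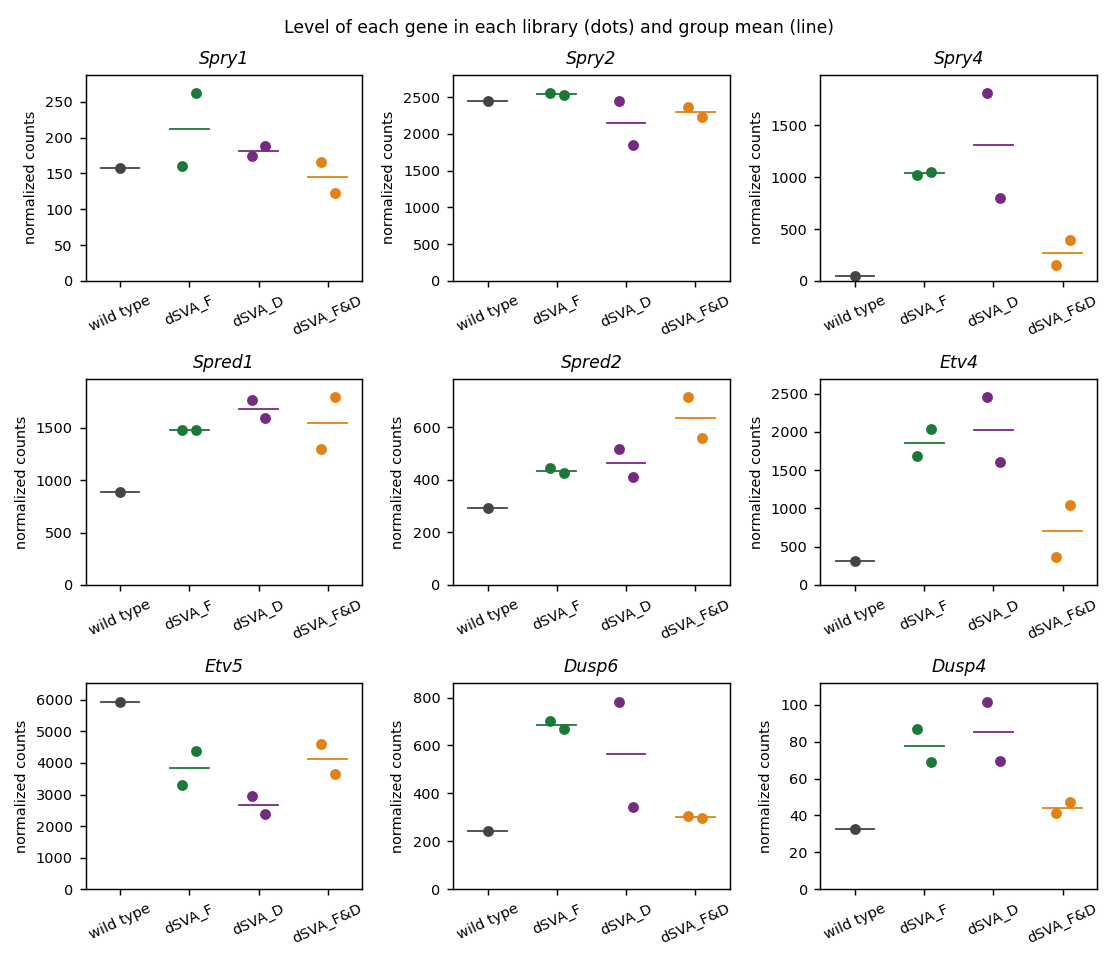
Level of each of the 9 genes in every library. The vertical axis of each panel is the normalized count from 0, dots are libraries, lines are group means, and dSVA_F, dSVA_D and dSVA_F&D stand for the converted cells. Spry4, Etv4, Dusp6 and Dusp4 share one order, with the wild type lowest and both conv-dSVA_F&D libraries under all 4 single-deletion libraries, while Spry2 is nearly level and Etv5 is highest in the wild type.

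The other Sprouty genes did not show the Spry4 pattern. Spry2, a broadly acting inhibitor of receptor tyrosine kinase signalling, measured 2446 normalized counts in the wild type, while conv-dSVA_F gave 2551 and 2529.7, conv-dSVA_D gave 2448 and 1845, and conv-dSVA_F&D gave 2365 and 2230.2. The highest library was 1.38 times the lowest, the smallest span of the 9 genes. Spry1 measured 158 in the wild type, while conv-dSVA_F gave 161 and 262, conv-dSVA_D gave 175 and 189, and conv-dSVA_F&D gave 167 and 123. Its wild-type value lay inside the range of the converted libraries. Neither passed in any comparison, with log2 differences from the wild type of -0.08 ± 0.15 for Spry2 (adjusted p = 0.833) and 0.14 ± 0.33 for Spry1 (adjusted p = 0.865).

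Compared per kilobase of exon, which allows levels of different genes to be set side by side, Spry2 led the Sprouty genes in all 7 libraries. It stood at 1172 normalized counts per kilobase in the wild type against 10.3 for Spry4, a ratio of 113. The ratio of Spry2 to Spry4 was 36.3 and 12.9 for the conv-dSVA_F&D libraries, 5.67 and 5.46 for conv-dSVA_F, and 3.08 and 5.23 for conv-dSVA_D. Spry4 made up 0.835% of the summed Sprouty level per kilobase in the wild type, 2.55% and 6.92% in conv-dSVA_F&D, and between 14.4% and 23.6% in the single-deletion libraries. In rank among the 9 genes Spry4 was the last in the wild type and the fourth in conv-dSVA_D replicate 1.

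Spred1 and Spred2, membrane-bound inhibitors of the step from RAS to RAF, were lower in the wild type than in each converted library, without passing. Spred1 measured 892 normalized counts in the wild type, while both conv-dSVA_F libraries gave 1485, conv-dSVA_D gave 1764 and 1591, and conv-dSVA_F&D gave 1296 and 1791 (log2 difference from the wild type 0.81 ± 0.17, adjusted p = 0.0583). Its converted groups overlapped except conv-dSVA_F and conv-dSVA_D. Spred2 measured 294 in the wild type, while conv-dSVA_F gave 443 and 426, conv-dSVA_D gave 519 and 409, and conv-dSVA_F&D gave 713 and 560.0 (0.77 ± 0.21, adjusted p = 0.0977). Unlike Spry4 it had its highest values in conv-dSVA_F&D, where both libraries lay above all others (0.46 ± 0.19 against conv-dSVA_D, adjusted p = 0.229, and 0.54 ± 0.19 against conv-dSVA_F, adjusted p = 0.157). Relative to the wild type, Spred1 passed without conv-dSVA_F&D replicate 1 (adjusted p = 0.0210) or 2 (adjusted p = 0.0267), and Spred2 without replicate 2 (adjusted p = 0.0495).

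Etv4 and Etv5, both of the PEA3 group of ETS factors, differed in where the wild type stood: it was the lowest library for Etv4 and the highest for Etv5. By GRCm38, Etv4 lies on chromosome 11 (101769742 to 101785371, minus strand) and Etv5 on chromosome 16 (22381309 to 22439719, minus strand), and the medians of their chromosomes stayed within 0.07 of the wild type on the log2 scale. Etv4 measured 311 normalized counts in the wild type, while conv-dSVA_F gave 1684 and 2036, conv-dSVA_D gave 2450.4 and 1606, and conv-dSVA_F&D gave 362 and 1045. The wild type was lowest and conv-dSVA_F&D lay under all single-deletion libraries, as for Spry4, but of the conv-dSVA_F&D libraries replicate 1 was near the wild type and replicate 2 was well above it. Etv4 differed by -1.69 ± 0.40 from conv-dSVA_D (adjusted p = 0.0523), by -1.59 ± 0.40 from conv-dSVA_F (adjusted p = 0.0580) and by 2.07 ± 0.43 between converted cells and wild type (adjusted p = 0.0534), so it did not pass in any of these. Without conv-dSVA_F&D replicate 2 the differences were -2.45 and -2.35, with adjusted p = 0.00873 and 0.00859, and without conv-dSVA_F&D replicate 1 they were -0.92 and -0.83, with adjusted p = 0.0557 and 0.0724. Relative to the wild type Etv4 passed when either conv-dSVA_F&D library was left out (adjusted p = 0.00344 without replicate 1 and 0.0120 without replicate 2).

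Etv5 measured 5943 normalized counts in the wild type, while conv-dSVA_F gave 3304 and 4382, conv-dSVA_D gave 2955 and 2379.8, and conv-dSVA_F&D gave 4607 and 3643. It was the 1 gene of the 9 with its highest value in the wild type, above all 6 converted libraries (-0.78 ± 0.19, adjusted p = 0.0731). Against the wild type it passed without conv-dSVA_F&D replicate 1 (adjusted p = 0.0417). Both conv-dSVA_F&D libraries exceeded both of conv-dSVA_D, without passing (0.63 ± 0.17, adjusted p = 0.0827), and overlapped between conv-dSVA_F&D and conv-dSVA_F (0.11 ± 0.17, adjusted p = 0.773). Per kilobase of exon, Etv5 exceeded Etv4 14.5-fold in the wild type, 9.64-fold and 2.64-fold for the conv-dSVA_F&D libraries, and 1.48-fold and 1.63-fold for those of conv-dSVA_F. In conv-dSVA_D the ratio was 0.912 and 1.12, so the 2 genes were at about the same level per length there. This ratio was computed after the values were seen and was not tested.

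**Figure D2:**
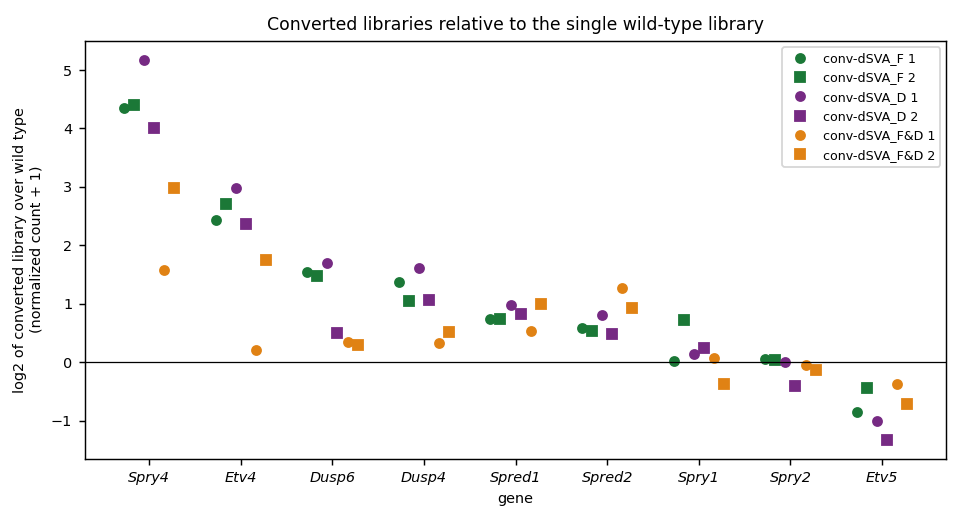
Log2 ratio of each converted library to the single wild-type library for the 9 genes, on normalized counts plus 1. Circles are replicate 1 and squares replicate 2, and colours are the converted cells. Spry4 lies between 1.58 and 5.18 and Etv5 between -1.32 and -0.37, and the orange conv-dSVA_F&D symbols lie lowest for Spry4, Etv4, Dusp6 and Dusp4.

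Dusp6, the cytoplasmic phosphatase specific for ERK (chromosome 10, 99263231 to 99267489, plus strand), measured 241 normalized counts in the wild type, while conv-dSVA_F gave 703 and 670.3, conv-dSVA_D gave 783 and 343, and conv-dSVA_F&D gave 307 and 297. Both conv-dSVA_F&D libraries lay close together, just above the wild type, and conv-dSVA_D replicate 2 lay near them. The difference of conv-dSVA_F&D from conv-dSVA_F was -1.18 ± 0.32 (adjusted p = 0.0700), from conv-dSVA_D -0.78 ± 0.32 (adjusted p = 0.208), and of converted cells from the wild type 0.98 ± 0.34 (adjusted p = 0.164). The comparison with conv-dSVA_F passed without conv-dSVA_D replicate 1 or 2 (adjusted p = 0.0366 and 0.0353), which left the difference at -1.18. The difference from conv-dSVA_D was -0.18 (adjusted p = 0.808) without conv-dSVA_D replicate 1 and -1.37 (adjusted p = 0.0576) without its replicate 2.

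Dusp4, a nuclear phosphatase of the same family, was the lowest of the 9 genes per kilobase in all 6 converted libraries. It measured 32.7 normalized counts in the wild type, while conv-dSVA_F gave 86.8 and 69.1, conv-dSVA_D gave 102 and 69.4, and conv-dSVA_F&D gave 41.2 and 47.4. These groups did not overlap except conv-dSVA_F with conv-dSVA_D. No difference passed (-0.80 ± 0.40 from conv-dSVA_F, adjusted p = 0.298, and -0.91 ± 0.40 from conv-dSVA_D, adjusted p = 0.247). Dusp4 lies on chromosome 8 (34807297 to 34819894, plus strand), whose median log2 level relative to the wild type was 0.65 and 0.45 for conv-dSVA_F, 0.05 and 0.25 for conv-dSVA_D, and 0.03 and 0.01 for conv-dSVA_F&D. With chromosome medians set equal, the difference from conv-dSVA_F was -0.26 (adjusted p = 0.774) and from conv-dSVA_D -0.78 (adjusted p = 0.329).

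Promoter sequence from RefSeq (GRCm38.p6) was searched for 6 of the 9 genes, in 7 windows of 250 bases before an annotated start. Spry4 was left out of the search, and no sequence was at hand for Etv4 and Dusp4. They were searched on both strands for TGAATG, the core of the element bound by the repressor CIC, and for CCGGAA, a core bound by many ETS factors. Dusp6 and 1 of the 2 annotated Etv5 starts held TGAATG. They are shown because these 2 are the ones with a match among the 6 genes searched. The wild type was the lowest library for Dusp6 and the highest for Etv5. The core is in capitals, on either strand (CATTCA is its reverse complement).

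Dusp6, chr10:99262981-99263230, plus strand: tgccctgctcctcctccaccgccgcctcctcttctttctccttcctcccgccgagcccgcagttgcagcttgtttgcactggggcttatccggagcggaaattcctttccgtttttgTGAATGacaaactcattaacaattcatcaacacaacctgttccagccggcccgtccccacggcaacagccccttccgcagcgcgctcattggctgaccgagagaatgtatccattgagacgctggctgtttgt
Etv5, chr16:22438369-22438618, minus strand: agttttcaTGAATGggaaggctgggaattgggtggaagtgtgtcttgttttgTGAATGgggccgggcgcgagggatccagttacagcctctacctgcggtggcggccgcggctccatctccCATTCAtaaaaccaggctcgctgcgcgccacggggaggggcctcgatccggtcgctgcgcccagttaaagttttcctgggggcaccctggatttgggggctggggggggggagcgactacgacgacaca

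The Dusp6 window held 1 core, beginning 133 bases before the start, and this Etv5 window held 3, beginning 242, 198 and 129 bases before it. At least 1 TGAATG was present in 10.9% of 32851 such windows over all genes, and at least 3 in 0.131% (43 windows). The other Etv5 start, further upstream, held none, and neither did the windows of Spry1, Spry2, Spred1 and Spred2. CCGGAA was in 0 of the 7 windows, against 12% of all windows with at least 1. With none present, no matches of the motifs overlapped. These matches describe letters only, and the deposited table does not give which Etv5 start was used.

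Counted over the whole set, 0 of 9 genes rose and 1 (Spry4) fell in conv-dSVA_F&D against conv-dSVA_D, where 1.96% of the 15240 tested genes rose and 1.21% fell. The median log2 difference of the 9 was -0.34, against -0.00 over all tested genes, and 6 of 9 had an unadjusted p under 0.05, as did 19.8% of all tested genes. Against conv-dSVA_F, 0 rose and 1 (Spry4) fell, beside 1.71% and 2.21% of all genes (median -0.52, all genes -0.01; unadjusted p under 0.05 for 4 of 9, beside 20.7% of all genes). Between conv-dSVA_F and conv-dSVA_D none of the 9 passed with limma, beside 1.08% higher and 0.262% lower over all genes. There 1 gene, Etv5 (0.52 ± 0.17, adjusted p = 0.171), had an unadjusted p under 0.05, beside 16.7% of all genes, and 0 passed with edgeR or DESeq2, which called 1.48% and 4.78% of all genes. Against the wild type 1 gene (Spry4) rose and 0 fell, beside 0.623% and 0.525% of all genes, with a median of 0.81 (all genes -0.01) and an unadjusted p under 0.05 for 7 of 9, beside 18.7% of all genes. In each of the 3 comparisons with a call, 11.1% of the set passed, which is 1 gene.

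DESeq2 on recovered reads called 6 of the 9 against the wild type, and 5.62% of all genes there. Higher were Spry4 (3.86, adjusted p = 8.96e-05), Etv4 (2.15, adjusted p = 0.0331), Dusp6 (1.01, adjusted p = 0.0462), Spred1 (0.81, adjusted p = 0.00333) and Spred2 (0.78, adjusted p = 0.0409), while Etv5 was lower (-0.77, adjusted p = 0.00387). In conv-dSVA_F&D it called Spry4 (-2.27) and Etv5 (0.63, adjusted p = 0.0116) against conv-dSVA_D, where it called 6.83% of all genes. Against conv-dSVA_F it called Dusp6 (-1.18, adjusted p = 0.00390) but not Spry4 (-1.94, adjusted p = 0.0505), and 7.95% of all genes. edgeR called Spry4 alone of the 9 in each of the 3 comparisons in which limma did, beside 3.04%, 3.63% and 2% of all genes (against conv-dSVA_D, conv-dSVA_F and the wild type).

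**Figure D3:**
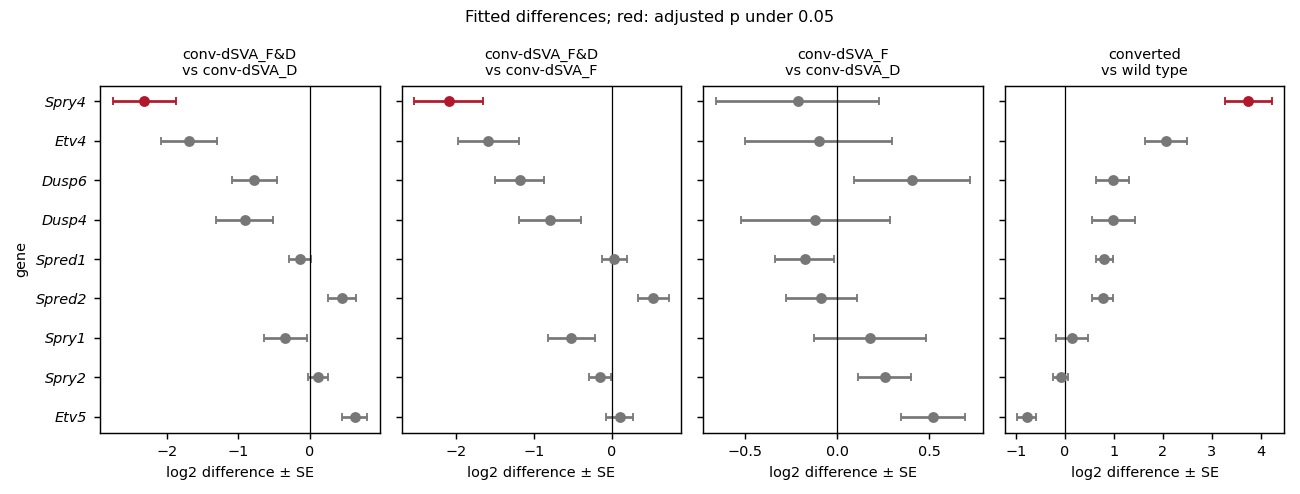
Fitted log2 differences of the 9 genes in the 4 comparisons, with bars of 1 standard error and red for adjusted p under 0.05 (limma). Spry4 is the 1 red gene, at -2.32, -2.10 and 3.75, and no gene is red between conv-dSVA_F and conv-dSVA_D.

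In 4 genes of the set, Spry4, Etv4, Dusp6 and Dusp4, the libraries had the same order: the wild type lowest, then both conv-dSVA_F&D libraries, then all 4 single-deletion libraries. Over all tested genes 2.65% had this order, and 2.6% had its reverse, as Taf1 did, which was true of 0 of the 9. The wild type was the lowest library for 6 of 9 (those 4, Spred1 and Spred2), against 18.8% of tested genes, and the highest for 1 of 9 (Etv5), against 19%. Outside Spry4, part of the shared order lay within counting error (exact Poisson intervals in normalized counts). For Dusp4 the wild type (22.1 to 46.7) overlapped conv-dSVA_F&D replicates 1 and 2 (30.1 to 55.1 and 32.8 to 66.2). For Dusp6 conv-dSVA_F&D replicate 2 (258 to 339) overlapped the wild type (210 to 275) and conv-dSVA_D replicate 2 (311 to 377). For Etv4 the wild type (276 to 349) overlapped conv-dSVA_F&D replicate 1 (327 to 399) but not replicate 2. The orders were chosen after the values were seen, they share the 1 wild-type library, and they carry no test.

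Genes that act around these inhibitors were read from 5 lists (81 genes, 80 in the table, 72 tested). Those under the level filter were Fgf5, Fgf8, Fgf15, Egr1, Egr3, Fosl1, Dusp2 and Fli1, among them the classic early ERK target Egr1. In conv-dSVA_F&D against conv-dSVA_D 4 of the 72 rose and 1 fell (all genes 1.96% and 1.21%), and against conv-dSVA_F 1 rose and 5 fell (1.71% and 2.21%). In conv-dSVA_F against conv-dSVA_D 4 rose and 0 fell (1.08% and 0.262%), and against the wild type 2 rose and 0 fell (0.623% and 0.525%). The list medians in the first comparison lay between -0.06 and 0.03, near the median of all genes. Those of conv-dSVA_F&D against conv-dSVA_F lay between -0.53 and 0.07 (all genes -0.01). In conv-dSVA_F against conv-dSVA_D they lay between -0.07 and 0.48 (all genes -0.01). Against the wild type they lay between 0.16 and 0.32 (all genes -0.01), and 50 of the 72 genes were higher, passing or not.

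Of 22 genes of the RAS to ERK cascade, the docking protein gene Gab1 (2995 ± 0.325 to 4327 ± 92.5 normalized counts, SD, n = 2; log2 difference 0.53, adjusted p = 0.0497) and the scaffold gene Ksr1 (0.78, adjusted p = 0.0416) rose in conv-dSVA_F&D relative to conv-dSVA_D. Gab1 was higher in conv-dSVA_F than in conv-dSVA_D (0.86, adjusted p = 0.0193). It lies on chromosome 8, and the difference was 0.46 (adjusted p = 0.0853) with chromosome medians set equal. Against the wild type none of the 22 passed with limma, beside 0.623% higher and 0.525% lower over all genes. An unadjusted p under 0.05 was seen for 5 of the 22, beside 18.7% of all genes. There edgeR called 0 and DESeq2 called 1, beside 2% and 5.62% of all genes.

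Of 13 ligand and receptor genes, the receptor gene Fgfr1 (0.81, adjusted p = 0.0486) and Erbb3 (0.67, adjusted p = 0.0486) were higher in the converted cells than in the wild type. Fgfr1, on chromosome 8, stood at 0.57 (adjusted p = 0.0728) with chromosome medians set equal. Erbb3 fell in conv-dSVA_F&D relative to conv-dSVA_F (2335 ± 217 to 1232 ± 20.2, SD, n = 2; -0.92, adjusted p = 0.0122). Of 14 other inhibitors the phosphatase gene Dusp9 fell in conv-dSVA_F&D relative to conv-dSVA_F (3624 ± 305 to 2351 ± 41.5, SD, n = 2; -0.62, adjusted p = 0.0259).

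Of 11 other ERK-induced genes the members moved in no single direction. Epha4, an ephrin receptor gene, stood at 453 ± 17.4 in conv-dSVA_D, 996 ± 43.1 in conv-dSVA_F&D and 1733 ± 464 in conv-dSVA_F (SD, n = 2 each), and all 3 differences passed (1.13, -0.77 and 1.91). With chromosome medians set equal its difference between conv-dSVA_F&D and conv-dSVA_F had adjusted p = 0.0622. The chromatin protein gene Hmga2 was higher than in conv-dSVA_D in both conv-dSVA_F&D (1.76, adjusted p = 0.0318) and conv-dSVA_F (1.92, adjusted p = 0.0366), and the urokinase receptor gene Plaur was higher in conv-dSVA_F than in conv-dSVA_D (1.93, adjusted p = 0.0310) and conv-dSVA_F&D (-1.85 for conv-dSVA_F&D over conv-dSVA_F, adjusted p = 0.0231). The early response gene Ier3 rose in conv-dSVA_F&D relative to conv-dSVA_F (1.11, adjusted p = 0.0282), and its adjusted p was 0.0547 with chromosome medians set equal.

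None of 12 ETS factors and repressors of ETS targets, Cic among them, passed with limma in any of the 4 comparisons. At an unadjusted p under 0.05 there were 2, 3, 2 and 3 genes (conv-dSVA_F&D against conv-dSVA_D, against conv-dSVA_F, conv-dSVA_F against conv-dSVA_D, converted against wild type), beside 19.8%, 20.7%, 16.7% and 18.7% of all genes. In the same order edgeR called 0 in each, beside 3.04%, 3.63%, 1.48% and 2% of all genes. DESeq2 called 0, 1, 1 and 1, beside 6.83%, 7.95%, 4.78% and 5.62%. The pathway calls also rested on single libraries: of the 5 in conv-dSVA_F&D against conv-dSVA_D, 0 held without conv-dSVA_D replicate 1 or 2 and 2 or 3 held without conv-dSVA_F replicates 1 or 2 or conv-dSVA_F&D replicates 1 or 2. Of the 6 against conv-dSVA_F, 0 held without conv-dSVA_F replicate 1, 4 without conv-dSVA_F&D replicate 1 and 2 without any other converted library. Of the 4 in conv-dSVA_F against conv-dSVA_D, 0 held without conv-dSVA_D replicate 1 or 2, 1 when conv-dSVA_F replicate 1 was left out and 3 when replicate 2 was. Of the 2 against the wild type, 0 held without any 1 of the conv-dSVA_D and conv-dSVA_F libraries.

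Genes outside the set whose levels followed its mean profile most closely were Acad11, Nrp2, Eif4g3, Foxh1 and Setd5. Likeness was the root mean square distance between centred log2 levels over the 7 libraries, among 9814 genes with a mean of at least 100. The distance was 0.12 for Acad11, which encodes an acyl-CoA dehydrogenase. It stood at 577 in the wild type, 644 and 712 in conv-dSVA_F&D, and 998 to 1270.3 in the single-deletion libraries. For Foxh1, a transcription factor gene of Nodal signalling, the distance was 0.15, with 392 in the wild type, 521 and 598 in conv-dSVA_F&D, and 798 to 952 in the single-deletion libraries. All 5 had the wild type lowest and conv-dSVA_F&D next, except Eif4g3, whose conv-dSVA_F&D replicate 2 (687) lay above conv-dSVA_D replicate 2 (641). The mean profile is weighted by the members that varied most, and the points share 7 libraries and their size factors. Each member lay further from that profile (0.18 for Dusp4 to 1.26 for Spry4) than these 5 genes did (at most 0.16, Setd5). Likeness to the mean profile is thus not likeness to a single member.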

How the data were processed

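The deposited signal was a table of normalized counts per gene, which the values show to be reads divided by 1 size factor per library. Per the submitters' processing notes, Trimmomatic 0.36, STAR 2.7.3, Picard 2.18.20, featureCounts 1.6.3, DESeq2, deepTools 3.1.0 and the build mm10 were used, while their roles, strand setting and annotation are not given in the sources used here. Library names linked columns to samples, and 3 of 10 samples (pre-conversion cells and striatum) were not analysed here. The smallest step of each column gave whole reads, to within 0.1 read for at least 99.995% of values above 0.

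Differences were tested with limma 3.58.1 (R 4.3.3, variance trend, two-sided) on log2 of the normalized count plus 1, which understates differences of low genes. The fit had 1 mean for each of 4 groups, took the spread of the wild type from the converted groups, and covered 15240 genes, over which p-values were adjusted (Benjamini-Hochberg, threshold 0.05). Whether replicates are separate cultures is not labelled, so p-values reflect only the spread among these libraries. In some genotypes that spread included shifts of whole chromosomes. For conv-dSVA_F&D, the chromosome 18 median (log2, against the wild type) differed between libraries, being -0.05 for replicate 1 but 0.47 for replicate 2. For conv-dSVA_D, the chromosome 8 median was 0.05 for replicate 1 but 0.25 for replicate 2. How much of the spread is technical was not tested. edgeR 4.0.16 and DESeq2 1.42.0 on recovered reads were among the alternatives. Positions and exon lengths are from GENCODE M21 (GRCm38), with 50618 of 54456 genes matched by name. For chromosome medians, 10644 protein-coding genes were used (mean 50 or more).

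The members and lists were chosen with earlier results of these data known. The genes named are Taf1, all 9 members, up to 4 passing genes per pathway list and comparison, and the 5 genes nearest to the members' mean profile. The values of 1 passing pathway gene are not reported here.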

Additional observations from a re-analysis of the deposited data

How the results depend on the processing

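Comparisons are given in the order conv-dSVA_F&D against conv-dSVA_D, conv-dSVA_F&D against conv-dSVA_F, conv-dSVA_F against conv-dSVA_D, and converted against wild type. The reported counts were 482, 597, 205 and 175 genes, and 1, 1, 0 and 1 of the 9 members. With a pseudocount of 5, the genes higher and lower were 318 and 207, 286 and 370, 203 and 49, and 140 and 135 (275 against the wild type). The members passing were then 2, 2, 0 and 3. With no low-value filter 0, 0, 0 and 906 genes passed (3823, 4058 and 3451 at unadjusted p under 0.05 in the first 3) and 0 members in each. With no variance trend 0, 0, 1 and 1 genes passed (2452 and 2535 at unadjusted p under 0.05 in the first pair) and 0 members in each. With only the libraries of both sides, 246, 200 and 504 genes and 0, 2 and 0 members passed in the first 3. DESeq2 called 1041, 1211, 729 and 857 genes and 2, 1, 0 and 6 members. edgeR called 305 genes against the wild type, and with chromosome medians set equal 171 genes passed in the second comparison. With the converted libraries as 1 group, 0 genes (1603 at unadjusted p under 0.05) and 0 members passed against the wild type. Leaving out 1 library gave 0 to 765, 0 to 865, 0 to 485 and 2 to 599 genes, and 0 to 2, 0 to 2, 0 to 0 and 0 to 4 members. The cause was not tested, beyond fewer libraries or more genes tested where the alternative sets these.

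Spry4 kept its direction in 15 of 15 alternatives in each of the first pair of comparisons, passing in 8 and 7, and in 14 of 14 against the wild type, passing in 9. Leaving out 1 library turned the sign of some members that did not pass. In the first comparison Spry2 ranged from -0.092 to 0.32 and Spred1 from -0.37 to 0.10. In the second Spred1 ranged from -0.20 to 0.27 and Etv5 from -0.10 to 0.31. In the third Spry1 ranged from -0.17 to 0.53, Spry4 from -0.80 to 0.37, Spred2 from -0.26 to 0.086, Etv4 from -0.40 to 0.21, Dusp6 from -0.19 to 1.00 and Dusp4 from -0.39 to 0.16. No paired analysis was possible because the labels give no replicate numbers, and the numbers used here follow accession order. The floor of 3 reads is 2.45 to 4.18 normalized counts, below every member in every library. With 2 libraries per group and 1 wild type, precision is limited by their number.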
